A study of Mus musculus with 6 samples.

Results

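Immunoglobulin variable (V) segments are the germline gene pieces that encode most of the antigen-binding part of an antibody chain. The members described here were chosen by their summed counts: they are the genes with a heavy (Ighv), kappa (Igkv) or lambda (Iglv) V symbol that held 1 or more counts summed over 6 RNA libraries of immune cells from mouse hearts. This rule took 205 of the 348 V segments in the count table, which lists 57010 genes in all. They were 103 of 185 heavy, 99 of 160 kappa and 3 of 3 lambda segments. That sum is a measured value and is given only as a description: 20 members sat just inside the rule with 1 count each, 141 held 10 or more counts, and 143 V segments outside it held 0.

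The sorted cells carried CD45, the surface antigen shared by leukocytes, and lacked CD90.2, the Thy1 protein found on T cells. All mice carried the genotype given as Ova DTG, in a study of transgenic animals whose hearts express ovalbumin, and all had received OTI cells, which are CD8 T cells specific for ovalbumin. The mice of 3 libraries were also given immune checkpoint inhibitors (ICI), namely anti-CTLA-4 and anti-PD-1 antibodies at 200 µg each, and those of the other 3 were given isotype control antibody. The labels number the libraries 1 to 3 in each group as biological replicates and name myocarditis in the titles of both groups. Strain, age, sex, time after treatment, the promoter that drives ovalbumin and any pooling of animals are not stated in the sources at hand. The comparison asks whether V segment RNA in cardiac leukocytes other than T cells changed with checkpoint antibodies, relative to isotype antibody.

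A B cell makes its antibody genes by joining 1 V segment to a joining (J) segment, with a diversity segment between them in the heavy chain. The joined exon is then spliced to a constant region, so each B cell clone transcribes mainly 1 heavy and 1 light V segment. RNA from many naive B cells is therefore spread over many V segments. RNA from a few clones, whether naive, expanded or antibody-secreting, is held by few. Naive mature B cells carry the constant regions of IgM and IgD, and activated cells can switch to IgG, IgA or IgE. Counts per V gene record which V segments were transcribed, but neither the junctions nor the pairing of heavy with light chains.

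Total counts ran from 21528274 to 30736316 per library. Ptprc, which encodes CD45, was at 949 to 1423 counts per 1000000 library counts (CPM), and Thy1 had 0 to 2 counts in every library. Of 14575 genes tested by the edgeR quasi-likelihood test, 10040 (68.9%) were called at an adjusted p under 0.05, 35.0% higher and 33.9% lower in ICI libraries. The 6 listed markers of resident macrophages were all called higher in ICI libraries, with a summed level of 2389 to 2669 CPM against 9.75 to 17.96 CPM. ICI replicate 3 had 2786 counts of the female transcript Xist and 6 of 4 Y-linked genes, whereas the other ICI libraries had 0 and 12 counts of Xist; isotype replicate 3 had 1844 counts of Xist and 130 Y-linked counts.

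The germline ends of 11 V segments are printed to show how different, or how alike, the segments behind the main results are. Each line gives the last 70 bases of the annotated V exon, 5′ to 3′ on the coding strand, with the bases from the conserved cysteine codon onwards in capitals, where the third antigen-contact loop (CDR3) begins. They come from the GENCODE M21 transcripts of build GRCm38, which differs from the GRCm39 build of the counts, so no coordinates are given. Heavy segments lie on chromosome 12, kappa segments on chromosome 6 and lambda segments on chromosome 16. The first 4 form the known phosphatidylcholine-binding receptors of B-1a cells, and Igkv12-46 and Igkv9-124 led the kappa counts of single ICI libraries.
Ighv11-2: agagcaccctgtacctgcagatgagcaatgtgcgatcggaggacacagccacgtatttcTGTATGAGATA
Ighv12-3: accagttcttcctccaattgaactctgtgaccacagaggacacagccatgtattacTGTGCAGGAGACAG
Igkv14-126: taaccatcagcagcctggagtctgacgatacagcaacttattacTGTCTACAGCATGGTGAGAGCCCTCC
Igkv4-91: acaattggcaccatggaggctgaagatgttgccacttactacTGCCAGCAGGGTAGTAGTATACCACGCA
Igkv12-46: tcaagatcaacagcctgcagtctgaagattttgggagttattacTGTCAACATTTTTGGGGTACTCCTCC
Igkv9-124: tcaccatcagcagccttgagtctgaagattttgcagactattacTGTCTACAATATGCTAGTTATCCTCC

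The next 5 show segments that are near-identical over their last 70 bases, where a short read may not decide between genes. Ighv1-55, Ighv1-64 and Ighv1-69 belong to the large Ighv1 family and led heavy chain counts in different libraries, while Iglv1 and Iglv2 are a pair of the lambda locus.
Ighv1-55: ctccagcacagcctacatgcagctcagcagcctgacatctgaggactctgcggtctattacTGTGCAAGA
Ighv1-64: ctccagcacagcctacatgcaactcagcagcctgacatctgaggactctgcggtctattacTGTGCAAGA
Ighv1-69: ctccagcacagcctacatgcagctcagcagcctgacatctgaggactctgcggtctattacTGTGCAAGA
Iglv1: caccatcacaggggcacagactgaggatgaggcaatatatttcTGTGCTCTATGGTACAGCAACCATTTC
Iglv2: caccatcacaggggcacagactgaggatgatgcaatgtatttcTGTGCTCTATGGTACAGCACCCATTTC
Over these 70 bases Ighv1-55 and Ighv1-69 did not differ, Ighv1-64 differed from each at 1 base, and Iglv1 and Iglv2 differed at 3. Ighv11-2 and Ighv12-3 differed at 55. Over the last 200 bases Ighv1-55 differed from Ighv1-64 by 10 edits and from Ighv1-69 by 19. Ighv1-64 differed from Ighv1-69 by 17, and Iglv1 from Iglv2 by 5. Over the last 200 bases of the segment, 102 of the 205 members were at least 95% identical to another V gene, 56 of them heavy, 44 kappa and 2 lambda. Values of single V genes are therefore less certain than those of a locus or a family.

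V segment RNA was more abundant in every ICI library than in every isotype library, at all 3 loci. The V genes together held 1661, 2173 and 5629 counts in ICI replicates 1, 2 and 3, and 185, 139 and 239 counts in isotype replicates 1, 2 and 3. Summed heavy chain V levels were 23.1, 31.6 and 89.3 CPM in ICI libraries and 2.84, 2.72 and 2.64 CPM in isotype libraries. ICI replicate 3 stood above the other ICI libraries, and the isotype libraries lay close to each other.

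Kappa V segments, which most mouse B cells use for their light chain, summed to 44.0, 54.2 and 154 CPM in ICI libraries and to 3.22, 2.72 and 4.002 CPM in isotype libraries. Lambda V segments summed to 5.79, 5.90 and 18.1 CPM against 0.203, 0.203 and 1.14 CPM, with isotype replicate 3 the highest of its group. Group means were 48 ± 36.0 CPM against 2.73 ± 0.105 CPM for heavy, 84.1 ± 60.8 against 3.31 ± 0.648 for kappa and 9.94 ± 7.09 against 0.515 ± 0.540 for lambda (SD, n = 3 each). The log2 ratio of these means was 4.13 for heavy, 4.67 for kappa and 4.27 for lambda. Without ICI replicate 3 it was 3.32 for heavy and 3.89 for kappa, and without isotype replicate 3 it was 5.61 for lambda. These sums over the members carry no test. In a bulk library, more B cells and more immunoglobulin RNA per B cell cannot be told apart.

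B cell genes moved with the V segments. The B cell marker list was 477 to 1202 CPM in ICI libraries and 29.4 to 48.2 CPM in isotype libraries, and ICI replicate 3 was again the highest. Cd79a, the signalling partner of the B cell receptor, had 1595, 2068 and 5252 counts in ICI libraries and 15, 29 and 54 in isotype libraries. Set against 1000 counts of Cd79a and Cd79b, the V segments had 645, 673 and 719 counts in ICI libraries and 2102, 1511 and 1350.0 in isotype libraries. On that scale, chosen after the values were seen, the order of the groups turned and their ranges did not overlap. Cd79b had 981, 1162 and 2571 counts in ICI libraries and 73, 63 and 123 in isotype libraries. It thus held most of the scale only in isotype libraries. Per 100 Cd79a counts alone there were 62.9, 62.1 and 63.1 kappa V counts in ICI libraries. In isotype libraries there were 633, 231 and 228, so the size of the turn depends on the gene used for scaling. The part of B cell number in the V levels was not tested.

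**Figure D1:**
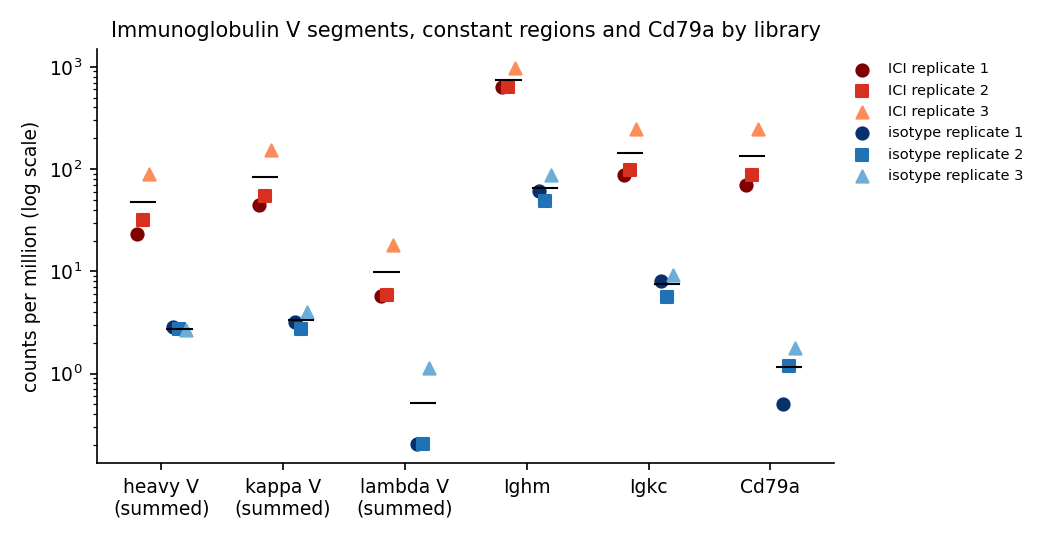
CPM (log axis) of the summed heavy, kappa and lambda V segments, of the constant regions Ighm and Igkc, and of Cd79a, with 1 point per library and a bar at each group mean. All 3 ICI libraries lie above all 3 isotype libraries in each column, and ICI replicate 3 lies highest.

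More heavy and kappa V segments were detected in ICI libraries, and more of them were needed to hold a given share of the counts. Heavy chain counts covered 79, 82 and 93 V genes in ICI libraries and 20, 10 and 22 in isotype libraries. Kappa counts covered 81, 85 and 91 V genes against 32, 15 and 26. The fewest genes that held 50% of the heavy counts numbered 15 in each ICI library and 4, 2 and 5 in isotype libraries; for kappa they numbered 12, 13 and 10 against 8, 2 and 3. For 90% of the heavy counts 49, 49 and 50 genes were needed in ICI libraries and 12, 5 and 14 in isotype libraries. Set against the number detected the groups were closer: 90% of the heavy counts sat in 49 of 79 detected genes in ICI replicate 1 and in 12 of 20 in isotype replicate 1.

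The effective number of V genes, the exponential of the Shannon entropy of their shares, is the number of equally used genes that would be equally diverse. For heavy chains it was 54.2, 54.4 and 52.9 in ICI libraries and 13.3, 5.59 and 14.8 in isotype libraries. For kappa it was 46.0, 49.6 and 40.4 in ICI libraries and 24.9, 8.31 and 12.6 in isotype libraries. The ranges did not overlap at either locus. ICI replicate 3, with 1923 heavy counts against 526 in ICI replicate 1, had nearly the same effective number of heavy V genes as the other ICI libraries. Dividing counts by annotated exon length, which ran from 297 to 501 bases, left the leading heavy and kappa gene of each library in place.

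Depth differs between these libraries and sets how many genes can be seen, so the expected number was also computed at equal depth. Drawn down to 67 counts, the lowest heavy and the lowest kappa total, the ICI libraries would show 38.5, 38.0 and 36.8 heavy V genes. The isotype libraries would show 17.9, 10 and 20.1. For kappa the expected numbers were 34.7, 35.7 and 32.3 in ICI libraries and 28.0, 15 and 19.6 in isotype libraries. The groups still did not overlap, and isotype replicate 2 stayed the lowest at both loci. Reads amplified from few cDNA molecules are not independent, so equal read depth is not equal molecule depth, and that part was not tested.

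**Figure D2:**
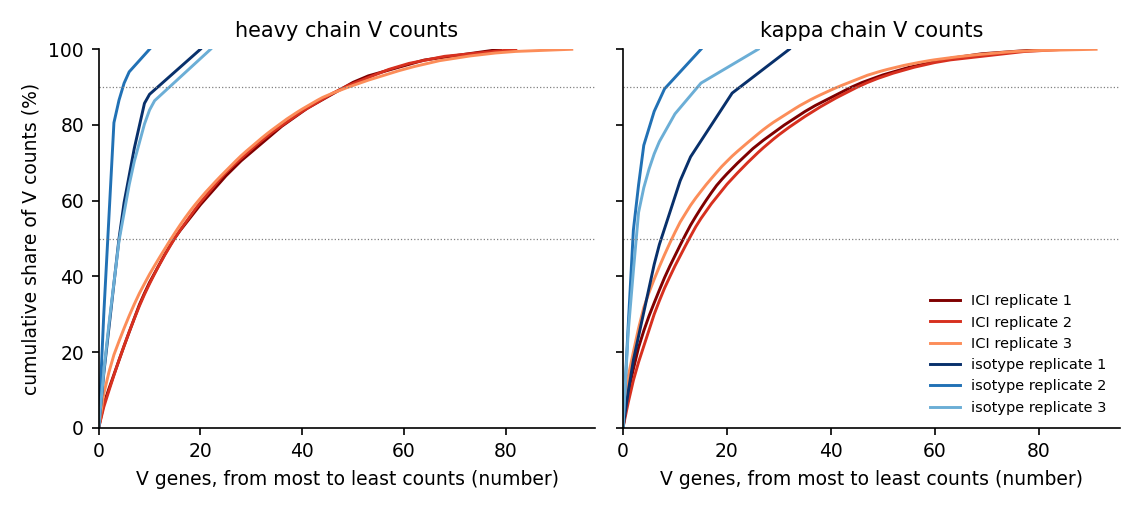
Cumulative share of heavy (left) and kappa (right) V counts against the number of V genes, ranked from most to least counts, with 1 line per library and dotted lines at 50% and 90%. The heavy lines of ICI libraries reach 50% at 15 genes, and those of isotype libraries reach it at 2 to 5.

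**Figure D3:**
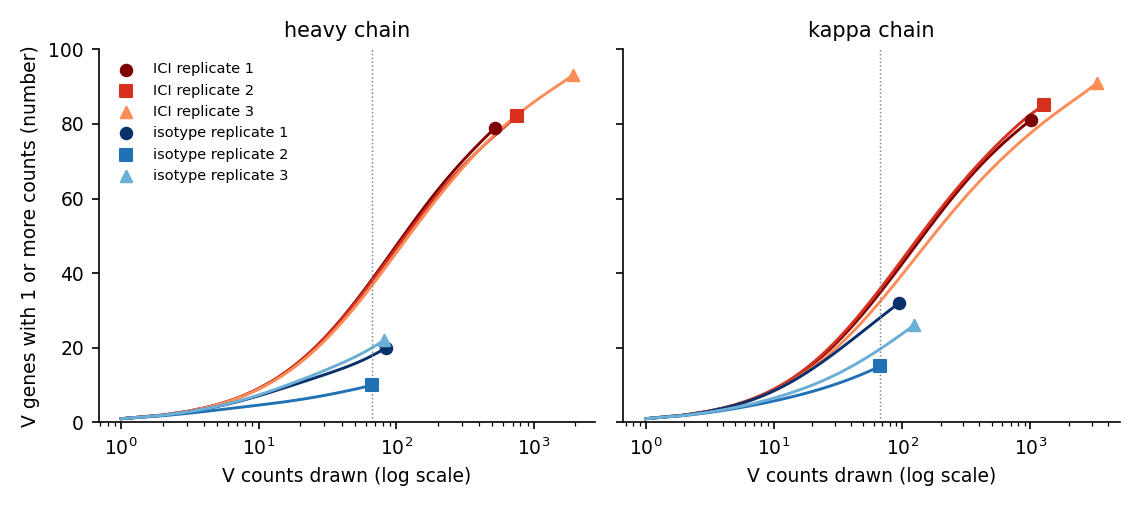
Expected number of V genes with 1 or more counts against the number of V counts drawn (log axis), for heavy (left) and kappa (right), by exact rarefaction; the marker ends each library's line at its observed total and the dotted line stands at 67 counts. At that line the ICI libraries show 36.8 to 38.5 heavy V genes and the isotype libraries 10 to 20.1.

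Of the 205 members, 141 had counts in all 3 ICI libraries, 8 had counts in all 3 isotype libraries and the same number had counts in all 6. These 8 were Ighv6-3, Ighv1-69, Igkv19-93, Igkv1-110, Igkv12-44, Igkv6-17, Igkv3-10 and Iglv1, of which Igkv12-44, Igkv6-17 and Igkv3-10 are named here after their values were seen. Of all 205 members, 117 had counts in ICI libraries and 0 in isotype libraries, and some of these are also among the 141. The reverse held for 1 member, Ighv1-41, an annotated pseudogene with 1 count in isotype replicate 1. Of the 88 members seen in any isotype library, 54 were seen in a single one. Members annotated as functional numbered 190 of 218 in the table, and pseudogene members 15 of 130. Pseudogenes held 8, 7 and 19 V counts in ICI libraries and 1, 0 and 0 in isotype libraries.

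Common V genes led the ICI libraries together, with a few that stood out in 1 library. Igkv1-135 held 62, 76 and 217 counts in ICI replicates 1, 2 and 3 and 6, 0 and 2 counts in the isotype replicates. Igkv1-117 held 57, 85 and 180 counts against 8, 3 and 0. Both were among the 3 leading kappa genes of ICI replicates 1 and 2, and Igkv1-135 also of ICI replicate 3. Among heavy genes, Ighv1-64 held 33, 31 and 69 counts against 1, 17 and 0, and Ighv1-55 held 20, 32 and 59 against 5, 0 and 12. Ighv1-72 held 21, 21 and 66 counts in ICI libraries and 1, 1 and 0 in isotype libraries.

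Single ICI libraries had leaders of their own. Igkv9-124 held 94 of the kappa counts of ICI replicate 1, a share of 9.37% (exact 95% binomial interval 7.64 to 11.4%), against 10 and 11 counts in ICI replicates 2 and 3. Ighv1-12 held 41 heavy counts of ICI replicate 2, or 5.47% (3.96 to 7.35%), against 3 and 8 in ICI replicates 1 and 3. These intervals, like all below, cover counting error only. In ICI replicate 3, Igkv12-46 held 448 counts, 13.5% of its kappa counts (12.4 to 14.7%), against 33 and 46 counts in ICI replicates 1 and 2 and 0 in every isotype library. Ighv8-5 held 90 heavy counts of the same library against 6 and 0 in the other ICI libraries, and Ighv6-3 held 109 against 15 and 17. The leading gene of each library thus differed within the group, while the effective number of heavy V genes lay between 52.9 and 54.4.

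Isotype libraries were led by other segments in each library. In isotype replicate 2, Ighv1-69 held 20 of 67 heavy counts, or 29.9% (19.3 to 42.3%), and Ighv1-64 and Ighv14-2 held 17 each. Its kappa counts were led by Igkv4-62 with 18 of 67 counts, 26.9% (16.8 to 39.1%), and by Igkv3-2 with 17. Igkv4-62 had 1, 0 and 1 counts in ICI libraries and 0 in the other isotype libraries, and Igkv3-2 also had 0 in those. The 5 leading heavy genes held 91.0% of the heavy V counts of isotype replicate 2.

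Isotype replicate 1 was led by Ighv4-1 with 12 of 84 heavy counts, 14.3% (7.61 to 23.6%), followed by Ighv1-69, Ighv1-80 and, named after its value was seen, Ighv14-4 with 10 each. Its kappa counts had no strong leader: Igkv19-93 held 9 of 95, 9.47% (4.42 to 17.2%). In isotype replicate 3, Ighv1-55 held 12 of 81 heavy counts, Ighv1-78 10 and Ighv14-3 9. Its kappa counts were led by Igkv1-110 with 31 of 123, 25.2% (17.8 to 33.8%), Igkv19-93 with 20 and Igkv14-100 with 19. Igkv1-110 and Igkv19-93 were also common in ICI libraries, with 39, 62 and 131 counts and 30, 54 and 208 counts. A gene with 0 counts in an isotype library could still hold up to 3.57, 4.48 and 3.70% of the heavy counts of isotype replicates 1, 2 and 3 (3 counts of the total).

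**Figure D4:**
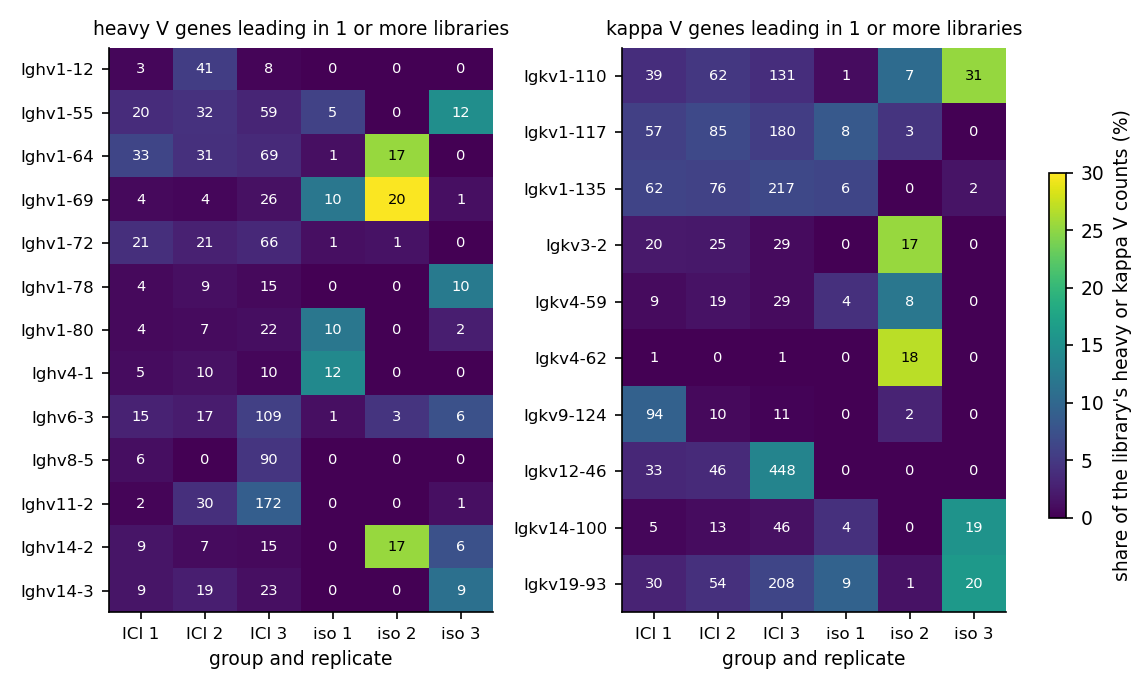
Counts (printed numbers) and share of the library's heavy (left) or kappa (right) V counts (colour, %) of each V gene that was among the 3 with the most counts in 1 or more libraries, ties taken by name. Shares above 20% occur in isotype replicates 2 and 3, where counts are few, and the top share in an ICI library is that of Igkv12-46 in ICI replicate 3 (13.5%).

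Usage was shared within the ICI group and little within the isotype group. The shared usage of 2 libraries is the sum over V genes of the smaller of their shares, so that 100% means equal usage. For heavy genes it was 70.9 to 71.8% over the 3 ICI pairs, 15.5 to 21.6% over the 3 isotype pairs and 15.6 to 27.8% over the 9 pairs between groups. For kappa it was 73.7 to 77.5%, 17.8 to 28.5% and 20.8 to 46.5%. Of the 10 leading heavy genes of each library, 6 to 7 were shared in ICI pairs and 1 to 4 in isotype pairs; for kappa 7 to 9 and 2 were shared. Few counts lower this measure, and how far they do so in the isotype libraries was not computed. By V family, shared usage was 84.7% within ICI, 77.9% within isotype and 69.4% between groups for heavy (means), a measure that fewer classes raise in every pair.

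V genes of the B-1a receptors against phosphatidylcholine were seen mainly in ICI replicate 3. B-1a cells are self-renewing B cells of body cavities that make natural IgM, and their anti-phosphatidylcholine receptors pair Ighv11-2 with Igkv14-126 or Ighv12-3 with Igkv4-91. Ighv11-2 held 2, 30 and 172 counts in ICI replicates 1, 2 and 3, and 0, 0 and 1 in isotype replicates. It was the leading heavy gene of ICI replicate 3 with a share of 8.94% (exact 95% interval 7.71 to 10.3%), against 4.01% (2.72 to 5.67%) in ICI replicate 2 and 0.380% (0.0461 to 1.37%) in ICI replicate 1. The 3 intervals did not overlap.

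Its usual partner Igkv14-126 held 8, 25 and 117 counts in ICI libraries and 0 in isotype libraries, with shares of the kappa counts of 0.798, 1.95 and 3.53%. Ighv12-3 held 1, 4 and 26 counts, and Igkv4-91 held 6, 22 and 73; both had 0 in isotype libraries. Shares of all 4 genes were highest in ICI replicate 3, next in ICI replicate 2 and lowest in ICI replicate 1. The 4 genes did not pass the filter on low counts; fitted with no filter, they had edgeR adjusted p-values of 0.0966 for Ighv11-2, 0.250 for Ighv12-3, 0.276 for Igkv14-126 and 0.230 for Igkv4-91. Ighv11-2 is 99% identical to Ighv11-1 over its last 200 bases, and Ighv11-1 had 0 counts. Cd5, a surface marker of B-1a and of T cells, had 10, 6 and 35 counts in ICI libraries and 3, 5 and 11 in isotype libraries. The summed level of the T cell list, which holds Cd5, was also highest in ICI replicate 3, at 19.5, 16.2 and 29.5 CPM. That sum was mostly Cd4, at 14.0, 9.66 and 19.2 CPM in ICI replicates 1, 2 and 3. Cd3d, Cd3e and Cd3g were highest in ICI replicate 1, whereas Cd247 and Cd6 were highest in ICI replicate 3. The part of T cells in the Cd5 counts was not tested. Whether the Xist counts of ICI replicate 3, given above, bear on this usage was not tested.

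**Figure D5:**
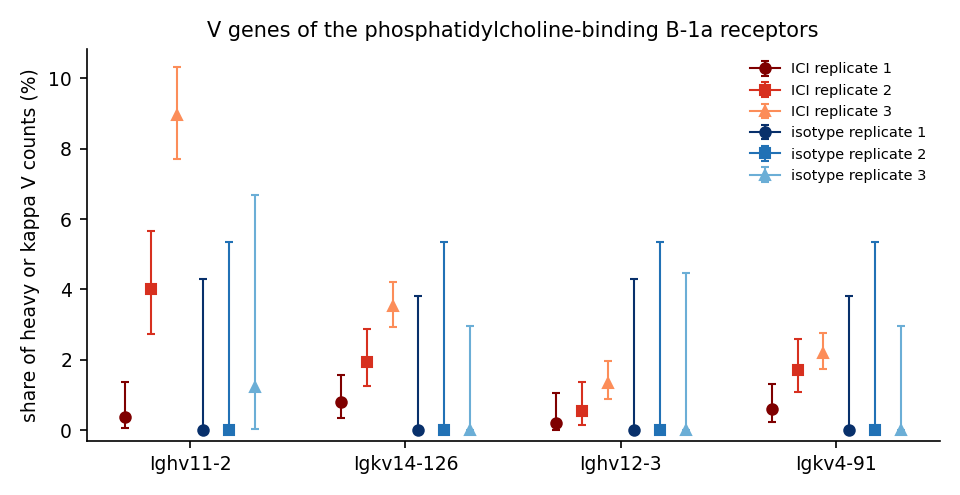
Share of heavy (Ighv11-2, Ighv12-3) or kappa (Igkv14-126, Igkv4-91) V counts (%) in each library, with exact 95% binomial intervals that cover counting error only. The points of ICI replicate 3 are the highest for each gene, and the isotype intervals are wide because their heavy and kappa totals are 67 to 123 counts.

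The kappa locus held most light chain V counts in every library. Its share was 88.4, 90.17 and 89.5% in ICI libraries and 94.1% (exact 95% interval 87.5 to 97.8%), 93.1% (84.5 to 97.7%) and 77.9% (70.6 to 84.1%) in isotype libraries. Isotype replicate 3 was the lowest, so the ranges overlapped; group means were 89.3 ± 0.908% and 88.3 ± 9.08% (SD, n = 3 each). Counted by constant regions, Igkc against Iglc1, Iglc2 and Iglc3, the kappa share was 81.8, 82.9 and 80.8% in ICI libraries. In isotype libraries it was 90.4, 90.7 and 85.6%, so on this count the group ranges did not overlap. It was lower than the share by V counts in every library but isotype replicate 3, where it was higher.

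Within the lambda locus Iglv1 led in all 6 libraries. It held 83, 88 and 279 counts in ICI libraries and 6, 5 and 30 in isotype libraries. Iglv2, near-identical to Iglv1 in sequence, held 38, 40 and 86 against 0, 0 and 4. Iglv3 held 11, 12 and 25 against 0, 0 and 1. Iglv1 made up 62.9, 62.9 and 71.5% of lambda counts in ICI libraries and 100, 100 and 85.7% in isotype libraries, where the totals were 6, 5 and 35 counts. The group ranges did not overlap, with Iglv1 lower and Iglv2 and Iglv3 higher as shares in every ICI library. The exact 95% intervals of the Iglv1 share in isotype libraries reached down to 54.1, 47.8 and 69.7%, and no test was made of this difference.

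By family, Ighv1, the largest mouse heavy chain family, led everywhere with 57.4, 56.2 and 44.9% of heavy counts in ICI libraries and 59.5, 59.7 and 53.1% in isotype libraries. Ighv14 was the 1 heavy family of 15 whose share was higher in every isotype library: 11.9, 25.4 and 18.5% against 3.80, 5.87 and 2.76% in ICI libraries. Its isotype counts came from different genes, Ighv14-4 in replicate 1, Ighv14-2 in replicate 2, and Ighv14-2 and Ighv14-3 in replicate 3. Ighv5 held 9.32, 10.3 and 10.8% in ICI libraries and 3.57, 5.97 and 1.23% in isotype libraries. Shares of 6 heavy families were higher in every ICI library and 8 overlapped. Those 6 include Ighv12, with 1, 4 and 26 counts in ICI libraries and 0 in isotype libraries. Isotype heavy totals are too low to tell 0 from shares of that size.

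Igkv1 held 17.2, 17.99 and 16.5% of kappa counts in ICI libraries, where it led except in replicate 3, led by Igkv12 (18.1%), against 15.8, 14.9 and 27.6% in isotype libraries. Igkv4 held 9.47, 9.11 and 8.38% in ICI libraries and 20, 40.3 and 0.813% in isotype libraries, a spread that covered the ICI range. Igkv6 was higher in every ICI library, at 11.4 to 12.4% against 2.99 to 8.94%. Of 18 kappa families 4 had shares higher in every ICI library, and 14 overlapped. Those 4 include Igkv11, with 7, 2 and 5 counts in ICI libraries and 0 in isotype libraries, where kappa totals are likewise too low.

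By position in the locus the ranges of the groups overlapped. Counts of V genes in the nearer 50% of the annotated heavy order, seen from the J segments, made up 41.8, 50.5 and 50.8% of heavy counts in ICI libraries and 46.4, 41.8 and 49.4% in isotype libraries. For kappa they made up 43.5, 44.7 and 45.9% in ICI libraries, and 50.5, 77.6 and 29.3% in isotype libraries, where single genes carried much of the total.

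In the test across all genes, 43 of the 205 members passed the filter on low counts, and 40 of these were called higher and 0 lower in ICI libraries (edgeR adjusted p under 0.05; 0 were lower at an unadjusted p under 0.05). The share of all tested genes called higher was 35.0%. Members passed the filter mainly through their ICI counts, and no tested member held over 41 isotype counts, so the number called, and the p-values of single members below, are given as a description only. Leaving out ICI replicate 1, isotype replicate 2 or isotype replicate 3 let more members pass the filter and gave 61, 62 and 61 calls, all higher. Values lay higher in every ICI library than in every isotype library for 128 of the 205 members, and lower for 0, where 32.3% of the 26866 genes with a count did so.

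The 10 largest called rises included Ighv5-17 (20, 26 and 63 counts against 0 in each isotype library), Ighv1-82 (19, 18 and 48 against 0), Ighv1-52 (16, 14 and 22 against 0) and Igkv13-85 (14, 15 and 23 against 0). Against 3 counts over the isotype group they were at least 45.4-fold, 35.4-fold, 21.6-fold and 21.6-fold higher. Igkv6-15 had 183 counts against 1, a ratio of 229 (95% counting interval 40.5 to 9072), and Igkv3-4 had 107 against 1, a ratio of 134 (23.5 to 5325). Igkv6-23 had 157 counts against 2, Igkv17-121 123 against 2 and Igkv9-124 115 against 2, with ratios of 98.0 (26.7 to 816), 76.8 (20.8 to 641) and 71.8 (19.4 to 600). Igkv10-96, with 209 counts against 4, was 52.02-fold higher (5.70 on the log2 scale with an SE of 0.69).

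Genes that led isotype libraries ranged widely in their fitted change. A gene chosen for a high isotype count has a lower ratio by that choice. Leaders that did not pass the filter were fitted with no filter. On the log2 scale Ighv1-69 was at 0.22, Ighv14-2 at 0.51, Ighv4-1 at 1.13, Ighv1-80 at 1.53 and Ighv1-78 at 1.55. Igkv4-59 was at 2.30, Ighv14-3 at 2.55 and Igkv4-62 at -2.88. Of these, only Igkv4-59 and Ighv14-3 had an edgeR adjusted p under 0.05 (0.0169 and 0.0178). Igkv1-135 and Igkv1-117, both leaders in isotype replicate 1, were 46.3-fold and 30.8-fold higher in ICI libraries (adjusted p = 0.00109 and 0.000745 by edgeR). Igkv1-110 was 6.47-fold higher in ICI libraries (2.69 on the log2 scale with an SE of 0.79, adjusted p = 0.0199 by edgeR), a call lost with no filter on low counts (0.0845) and without isotype replicate 2 (0.0708). Igkv19-93 was 10.6-fold higher (adjusted p = 0.0372), a call lost under 5 of 12 alternatives (adjusted p up to 0.115). Ighv1-64 was 7.82-fold (adjusted p = 0.0152) and Ighv1-55 7.001-fold higher (0.0052). Of the genes that led ICI libraries alone, Ighv6-3 was 14.9-fold higher (0.0311) and Igkv9-124, with its ratio given above, had an adjusted p of 0.00779. The calls of Ighv1-64, Ighv6-3 and Igkv9-124 were lost under 3, 4 and 3 alternatives, and that of Ighv1-55 held under all 12.

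The 3 tested members that were not called were Igkv12-46, Igkv3-2 and Igkv14-100. Igkv12-46 had 527 counts against 0, at least 219-fold higher over the group (edgeR adjusted p = 0.152), and was called without ICI replicate 3 (0.000123), the library that held 448 of its counts. Igkv3-2 (adjusted p = 0.0512) was called without isotype replicate 2 (0.000482), which held all 17 of its isotype counts. Igkv14-100 had 5, 13 and 46 counts against 4, 0 and 19 (adjusted p = 0.222). Of the lambda genes, Iglv1 was 11.99-fold higher (adjusted p = 0.00941). Iglv2 and Iglv3 had 4 and 1 isotype counts and so passed the filter through their ICI counts; Iglv2 was 40.9-fold higher and Iglv3 had 48 counts against 1, a ratio of 59.9 (10.2 to 2416).

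Constant region counts show which class genes were transcribed, but not which V segments they were joined to. Of 12 constant region genes 11 were tested, of which 6 were called higher, 1 lower and 4 not called. Ighm (IgM) had 14518, 14936 and 20932 counts in ICI libraries and 1791, 1199 and 2696 in isotype libraries, which is 3.302 on the log2 scale (SE 0.26, adjusted p = 4.56e-05 by edgeR). Ighd (IgD) had 1125, 1433 and 3009 counts against 9, 15 and 40, which is 6.57 on the log2 scale (SE 0.70, adjusted p = 0.000664 by edgeR). Per 100 Ighm counts there were 7.75, 9.59 and 14.4 Ighd counts in ICI libraries and 0.503, 1.25 and 1.48 in isotype libraries. Ighd thus differed more than Ighm, and both separated the groups. Heavy V counts per 100 Ighm counts were 3.62, 5.015 and 9.19 in ICI libraries. In isotype libraries they were 4.69, 5.59 and 3.004, so these ranges overlapped.

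Ighg2c, which encodes an IgG subclass, was the gene called lower, with 9, 6 and 11 counts in ICI libraries and 198, 85 and 36 in isotype libraries (log2 fold change -3.49 with an SE of 0.84, adjusted p = 0.00944 by edgeR). It was no longer called with limma-voom (0.0512), with no filter (0.0544) and without ICI replicate 2 (0.0515). Igha (IgA) had 42, 115 and 666 counts against 76, 131 and 172, Ighg2b 56, 17 and 72 against 3, 77 and 12, Ighg3 31, 17 and 64 against 29, 4 and 35, and Ighg1 20, 57 and 16 against 16, 0 and 11; none of these 4 was called, and the fitted change of Igha turned from 1.25 to -0.58 (log2) without ICI replicate 3. IgG subclass genes are alike in sequence, so reads may be divided between them. Switched classes made up 1.01% (exact 95% interval 0.857 to 1.17%), 1.28% (1.11 to 1.46%) and 3.35% (3.13 to 3.58%) of heavy constant counts in ICI libraries. In isotype libraries they made up 15.2% (13.7 to 16.8%), 19.7% (17.7 to 21.8%) and 8.86% (7.87 to 9.94%), above every ICI library.

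The kappa constant region Igkc had 2001, 2305 and 5340 counts against 236, 137 and 280 (4.03 on the log2 scale with an SE of 0.53, adjusted p = 0.00151 by edgeR). For each 100 Igkc counts there were 50.1, 55.7 and 62.1 kappa V counts in ICI libraries and 40.3, 48.9 and 43.9 in isotype libraries. Iglc1, Iglc2 and Iglc3 were called higher as well (log2 fold changes 3.89, 5.56 and 4.61). For each 100 Cd79a counts there were 910, 722 and 399 Ighm counts in ICI libraries and 11940, 4134 and 4993 in isotype libraries. J segments, which are short, held at most 2 counts each in any library, and 6 of 12 held 0 in all.

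Of the other listed genes, all 15 B cell markers were called higher in ICI libraries. Fcer2a, the low-affinity IgE receptor of mature follicular B cells, had 475, 548 and 1186 counts against 2, 3 and 5, and Bank1, a B cell scaffold protein, 3172, 3747 and 4473 against 95, 101 and 187. Pax5, the factor that keeps B cell identity, had 79, 94 and 220 counts against 1, 4 and 2, and Ralgps2 rose by a log2 fold change of 1.94 (edgeR adjusted p = 1.36e-05). Plasma cell markers were divided, with 4 of 9 called higher, 2 lower and 3 not called. Their summed level was 395 to 458 CPM in ICI libraries and 385 to 419 CPM in isotype libraries. That sum was mostly Xbp1, with group means of 264 and 286 CPM. Of those called higher, Tnfrsf17 had 81, 66 and 66 counts against 0 in each isotype library. Pou2af1 had 235, 464 and 1022 counts against 4, 4 and 15. Mzb1, a chaperone of antibody assembly, had 60, 91 and 248 counts against 3, 5 and 12, and Irf4 rose by 4.10 on the log2 scale. Jchain, which joins IgM and IgA into polymers, had 37, 65 and 421 counts against 47, 43 and 49 and was not called (edgeR adjusted p = 0.159). Prdm1, the plasma cell regulator that macrophages also express, and Xbp1 were called lower. Like Igha and Ighv11-2, Jchain was highest in ICI replicate 3.

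Genes of V(D)J recombination were at or near 0: Rag2 and Igll1 had 0 counts in all 6 libraries, Rag1 had 3 in all and Dntt at most 3 in any. Among markers of other cells, Cd3d, Cd3e and Cd3g of the T cell list had at most 25 counts in any library, 3 of 5 tested members of that list were called higher, and its summed level was 16.2 to 29.5 CPM against 3.52 to 5.43 CPM, mostly Cd4 in ICI libraries. Of the plasmacytoid dendritic cell markers 3 of 5 tested were called higher and 1 lower, with Siglech at 470, 149 and 430 counts against 21, 25 and 56. All 4 tested erythroid genes were called higher, with a summed level of 19.3 to 38.8 CPM against 0.325 to 2.56 CPM. The part of these other cells in the V counts was not tested. ICI replicate 3 had the highest summed level of its group for the B cell, plasma cell, T cell and plasmacytoid dendritic cell lists. It had the lowest for the erythroid list. The plasmacytoid sum was 48.4, 45.3 and 107.7 CPM in ICI libraries, of which Ly6d held 22.0, 34.2 and 82.3 CPM. Pacsin1 was also highest in ICI replicate 3. Siglech, Cox6a2 and Klk1 were instead highest in ICI replicate 1, and Ccr9 in ICI replicate 2.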

How the data were processed

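RNA of sorted CD45+ CD90.2- heart cells was sequenced from 6 libraries, 3 per group, with a SMART-seq V4 kit that keeps no strand, per the labels' protocols. The authors deposited raw counts per gene. GRCm39, Salmon 1.10.1 and STAR 2.7.10a appear, without roles, in the submitters' processing notes; the counting of reads that match several V genes is not given in these sources. Of 57010 gene IDs, 52029 (91.3%) matched a symbol. Names, gene types, order from J and sequences came from GENCODE M21 (GRCm38).

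Differences were tested with edgeR 4.0.16 in R 4.3.3 (quasi-likelihood test, TMM factors, default filter with a minimum count of 10, Benjamini-Hochberg adjustment over all genes tested, called under 0.05), and the scripts were tested on simulated data. Fold changes are ICI over isotype. CPM are counts per 1000000 library counts. Intervals are exact binomial at 95% and, like the floor of 3 counts, cover counting error only, since amplified reads cannot be traced to molecules. The labels do not say that replicates came from separate animals, so p-values set the group difference against the spread between these libraries.

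The text names the 3 leading heavy and kappa genes of each library, all lambda genes, 4 B-1a genes, the 10 largest called rises, constant regions and up to 4 genes of each other list. Other genes named (such as Cd79a, Cd5, Xist, Mzb1, Jchain, Xbp1 and Siglech) were chosen after their values were seen. Members and lists were chosen with earlier results of these data known, and some listed genes are not reported here and enter no list total. Alternatives were DESeq2 1.42.0, limma-voom (limma 3.58.1), other scalings and filters, a replicate block and each library left out. Pseudogenes left out, scaling to B cell genes and counts per exon length were added after seeing the data.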

Additional observations from a re-analysis of the deposited data

How the results depend on the processing

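Of 35 named genes that were tested, 22 kept their call under each alternative in which they could be tested (13 of the 22 did not pass the strict filter), the calls of 12 changed under 1 or more, and Igha turned to a log2 fold change of -0.58 without ICI replicate 3 (-0.58 to 1.76 over the libraries left out). V genes called numbered 40 in the edgeR fit, 104 with no filter on low counts and 3 with 50 counts required in 3 libraries, in each case with none lower. Leaving out each library in turn gave 41 to 62. DESeq2 gave 39. Scaling by library totals alone shifted the median over tested genes from 0.03 to 0.23 (log2), and calls from 5102 higher and 4938 lower to 6255 and 3724.

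The replicate block gave 42 V genes and 9991 genes called, against 40 and 10040, and newly called Igkv12-46, Igkv14-100 and Ighg3. Deviations of same-numbered libraries correlated by 0.0351, 0.0609 and 0.125, and ICI replicate 2 correlated best with isotype replicate 1 (0.0890). The value of 0.125, for replicate 3, was the highest of all pairs between groups. The block was not taken as the main fit, since the labels name no animal or litter shared by same-numbered libraries. Same-numbered libraries were alike in Xist, which was high in replicate 3 of both groups (2786 and 1844 counts), and what else they share is not stated.

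Per 1000 counts of Cd79a and Cd79b, the log2 ratios of summed V levels turned to -1.65 for heavy, -1.05 for kappa and -1.15 for lambda. Leaving out each library gave 3.32 to 4.47, 3.89 to 4.97 and 3.50 to 5.61. Mean V genes detected fell from 84.7 to 30.3 (heavy) and 85.7 to 42 (kappa) in ICI libraries, and from 17.3 to 3 and 24.3 to 1.67 in isotype libraries, when 10 counts were required. At equal depth the ICI means were 37.8 and 34.2. The effective number in ICI libraries was 53.8 for heavy and 45.3 for kappa, 40.2 and 30.5 as an inverse Simpson number, and 5.81 and 12.3 by family (isotype heavy 3.55). Per exon length the heavy ICI value was 55.1. The ICI kappa share, 89.3%, was 81.8% by constant regions and 90.5% without the leading gene. Family usage shared was 69.4, 84.7 and 77.9% for heavy between groups, within ICI and within isotype, and 59.3, 84.3 and 48.02% for kappa. The causes of these shifts were not tested. Isotype loci held 5 to 123 V counts, which limits every isotype share.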
